A study of Mus musculus with 17 samples.

Results

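Transcript levels of 10 genes, Ilrun, Gm31166, Marf1, Ppm1a, Zfp91, Paip2b, Dzip1, Grk5, Atf6b and 4833412C05Rik, were followed in the cortex of mice with altered Hnrnph2, the X-linked gene of the RNA-binding protein hnRNPH2. The 10 genes were selected on the same samples, as genes with a higher level in both knockin lines than in the controls of each line and not in knockout (KO) mice, out of 55453 gene symbols measured. All 10 were among the 16265 genes whose mean level was at least 1 TPM. Because their values in these comparisons chose them, those values are given as a description, and calls by limma on them are counted only beside the share of all genes called.

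The study sequenced RNA from bulk cortex of 17 male C57BL/6J mice to ask how loss of Hnrnph2 and disease-linked substitutions in its product alter expression. Hemizygous KO mice (Hnrnph2 KO, from a frameshift obtained while the knockins were made) and hemizygous knockin mice with the R206W substitution were taken at 8 weeks. Hemizygous knockin mice with the P209L substitution were taken at 3 weeks. Each line had wild-type littermates of the same age and sex as controls. Groups held 3 mice, with 2 P209L controls analysed here, and the P209L line and its age cannot be told apart. The changes were in the germline and so in all cells. Levels are TPM, the share of a transcript among all transcripts after division by length, scaled to a fixed total, so levels of different genes can be compared with each other, whereas the sequencing depth is unknown.

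Most of the proteins encoded by these genes are regulators that act on other proteins or RNAs. ILRUN dampens antiviral and inflammatory transcription, ZFP91 is a ubiquitin ligase of the noncanonical NF-kB pathway, PPM1A is a phosphatase that switches off stress kinases, and GRK5 is a kinase that desensitizes G protein-coupled receptors. MARF1 is an endoribonuclease, PAIP2B restrains translation through the poly(A)-binding protein, ATF6B is a membrane-bound transcription factor of the endoplasmic reticulum stress response, and DZIP1 takes part in cilium formation and Hedgehog signalling. Gm31166 and 4833412C05Rik are noncoding.

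The targeted gene checked the KO label. Hnrnph2 was at 21.3 to 24.4 TPM in KO cortex and 80.5 to 145 TPM in its controls, a log2 change of -2.30 (SE 0.170, limma adjusted p = 8.64e-06 over all genes). R206W mice had 135 to 160 TPM against 140 to 149 TPM, and P209L mice 84.5 to 103 TPM against 81.6 to 91.4 TPM. Both knockin groups overlapped their controls, so the level of Hnrnph2 does not check the knockin labels. Markers of neurons, cortical projection neurons, oligodendrocytes, astrocytes and microglia were detected in all groups. A pair of control mice stood apart. KO control 1 had 20.1% of its TPM in mitochondrial genes, against 10.7% to 15.4% in the 16 other mice. P209L control 2 had 1740 TPM of Ttr, the main choroid plexus transcript, against 0.67 to 23.2 TPM in the 16 other mice.

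In R206W cortex all 10 genes had every mutant above every control, with log2 differences from 0.31 to 1.62 and a median of 0.48. The median over all genes tested was 0.0096. In P209L cortex, too, all 10 had every mutant above both controls, with differences from 0.55 to 1.64 and a median of 0.71, against 0.016 over all genes. In KO cortex the median was -0.050, against 0.064 over all genes, 3 of the 10 were above 0, and only Gm31166 had every KO mouse above every control. Groups lay apart with the mutants higher for 8.09% of all genes tested in R206W, 14.2% in P209L and 5.43% in KO. Past an adjusted p under 0.05 in limma were 2 of the 10 in R206W (Ilrun and Gm31166), where 0.0369% of all genes passed as higher, and 6 in P209L (Ilrun, Gm31166, Marf1, Ppm1a, Zfp91 and Paip2b), where 0.0799% passed. In KO, 0 of the 10 passed, 0% of all genes passed as higher, and 0 of the 10 had an unadjusted p under 0.05. The count in P209L fell to 3 without P209L control 2, to 2 once a replicate block was added and to 0 when that line was fitted alone, and the count in R206W was 4 when that line was fitted alone. All 3 contrasts entered the choice of the genes, so nothing is read from these counts. In bulk tissue, more cells of a type and more RNA per cell cannot be told apart.

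**Figure D1:**
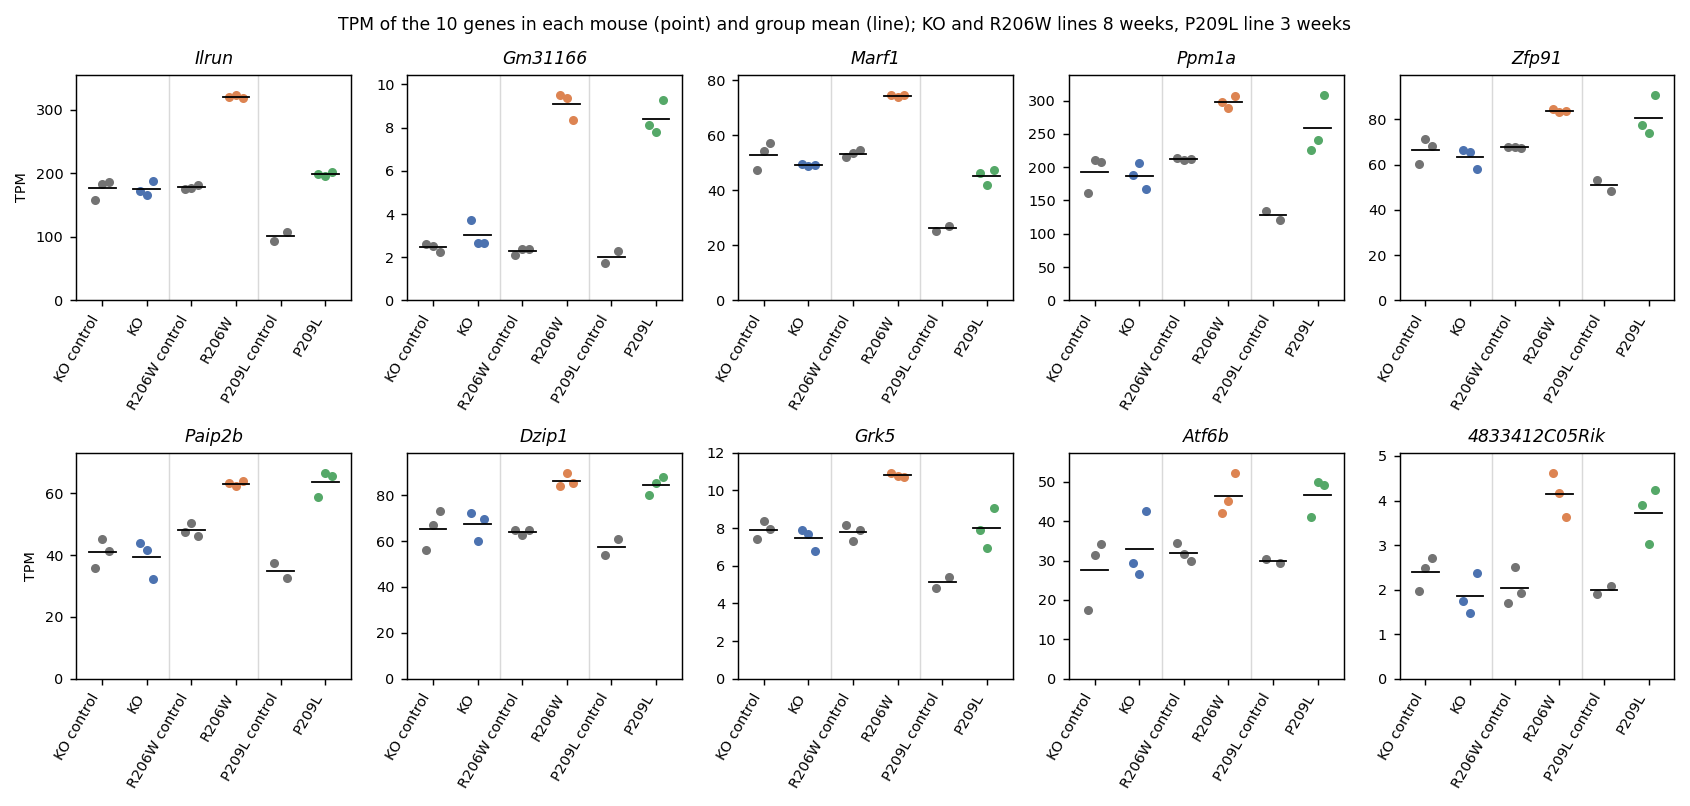
TPM of each of the 10 genes (vertical axes, linear and starting at 0) in every mouse (points) of the 6 groups, with the group mean as a line. The points of R206W and P209L lie above those of their own controls in every panel, while the KO points overlap those of their controls in all panels but that of Gm31166.

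**Figure D2:**
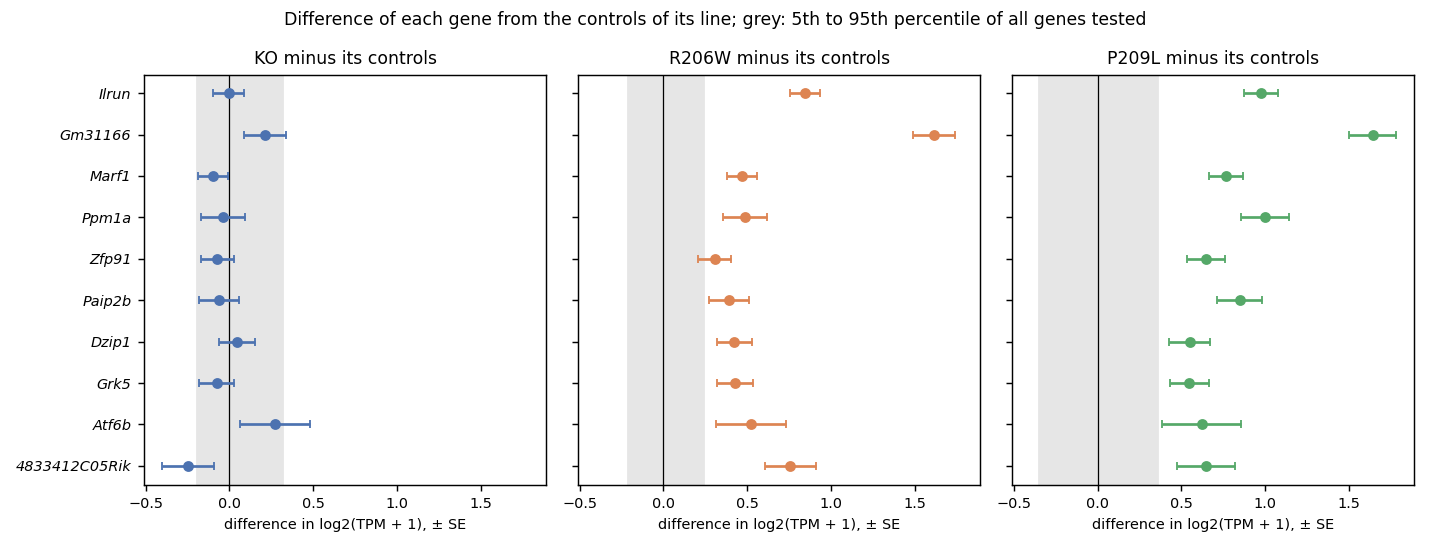
Difference of each gene from the controls of its line in log2(TPM + 1), with the standard error from limma, in KO, R206W and P209L cortex. The grey band holds the middle of all genes tested, from the 5th to the 95th percentile, and the points lie inside it in KO for 9 of the 10 genes and above it in both knockin lines for all 10.

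Ilrun was the most abundant of the 10 genes in R206W cortex. It encodes a regulator of inflammation and lipid metabolism that limits IRF3-dependent transcription (chr17:27751235-27820648, minus strand, GRCm38, protein-coding, 5 exons in its longest transcript). The R206W mice had 320.10, 323.51 and 318.30 TPM, and their controls 175.33, 176.64 and 182.09 TPM. The P209L mice had 198.61, 196.11 and 202.55 TPM, and their controls 93.94 and 108.04 TPM. The KO mice, with 171.69, 166.66 and 188.87 TPM, overlapped their controls, with 158.71, 183.58 and 187.27 TPM. The knockin means were thus 180% and 197% of control, and the KO mean 99.6%. The levels formed 4 separate tiers, with R206W at the top, then P209L, then the KO mice with all 8-week controls, which overlapped, and the P209L controls lowest. The log2 differences were 0.85 (SE 0.0918) in R206W and 0.98 (SE 0.103) in P209L, and -0.0046 (SE 0.0918) in KO.

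Zfp91 had the smallest difference of the 10 in R206W. It encodes a zinc finger ubiquitin ligase that stabilizes the kinase NIK in noncanonical NF-kB signalling (chr19:12763660-12796126, minus strand). R206W mice had 84.55, 83.28 and 83.69 TPM, against 67.80, 68.00 and 67.19 TPM. P209L mice had 77.34, 73.82 and 90.77 TPM, against 53.36 and 48.44 TPM. Both knockin groups overlapped each other and lay above all other mice, and the P209L controls were below all other mice. KO mice were at 58.21 to 66.48 TPM and their controls at 60.33 to 71.47 TPM. The knockin means were 124% and 158% of control in R206W and P209L, and the log2 difference in KO was -0.072 (SE 0.101). The gene Cntf lies inside the annotated span of Zfp91, on the same strand. A stretch of 851 nt of a Zfp91 transcript matched a Cntf transcript at 99.9% identity, so the division of reads between them is uncertain. Cntf was listed at 0.96 to 2.79 TPM, far under Zfp91.

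Ppm1a encodes a metal-dependent serine/threonine phosphatase of the PP2C family that acts on stress-activated kinases (chr12:72757455-72799819, plus strand). R206W mice had 298.06, 289.20 and 306.40 TPM and their controls 214.40, 211.09 and 211.62 TPM. P209L mice had 225.71, 240.47 and 308.35 TPM and their controls 134.00 and 121.00 TPM. The P209L mice were spread most widely, with a coefficient of variation of 17.1%, and reached the level of the R206W mice at their upper end, while the P209L controls were below all other mice. KO mice had 167.70 to 206.24 TPM and overlapped their controls, with 160.60 to 210.91 TPM. The P209L mean was 202% of control, the second largest ratio of the 10 in that line, and the R206W mean 140%.

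Grk5 was the least abundant coding gene of the set. It encodes a kinase that phosphorylates activated G protein-coupled receptors (chr19:60889749-61095968, plus strand). R206W mice had 10.91, 10.78 and 10.74 TPM and were above all other mice, their controls having 8.16, 7.33 and 7.88 TPM. P209L mice had 7.92, 6.94 and 9.08 TPM, which overlapped the 8-week controls, and their own controls had 4.83 and 5.41 TPM. KO mice, with 7.90, 7.68 and 6.78 TPM, overlapped their controls, with 7.43, 8.36 and 7.93 TPM. The means were 139%, 156% and 94.3% of control in R206W, P209L and KO. A processed pseudogene, Gm16284, matched a Grk5 transcript over 283 nt at 97.9% identity, and Gm28688 matched an Ilrun transcript over 258 nt at 97.3%, so a share of their reads could be assigned to either copy.

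Ilrun and Ppm1a were the members whose promoter windows held the cAMP response element TGACGTCA, the palindromic site of CREB and ATF factors, and their upstream sequences are shown with that motif in capitals. The windows, from RefSeq (GRCm38.p6), ran from 250 bases before to 50 after a gene's start, and 9 of the 10 genes had at least 1 (11 windows in all). The Ilrun sequence, 144 bases at chr17:27820649-27820792 on the minus strand, stops where annotated Ilrun exons begin, and the Ppm1a sequence is 250 bases at chr12:72760961-72761210 on the plus strand. It precedes a RefSeq start but lies inside the Ppm1a gene as GENCODE annotates it, 3.51 kb from that gene's start and outside its exons. 
Ilrun upstream: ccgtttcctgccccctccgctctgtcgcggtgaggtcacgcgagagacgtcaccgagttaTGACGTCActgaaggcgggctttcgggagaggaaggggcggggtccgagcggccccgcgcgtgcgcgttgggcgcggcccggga
Ppm1a upstream: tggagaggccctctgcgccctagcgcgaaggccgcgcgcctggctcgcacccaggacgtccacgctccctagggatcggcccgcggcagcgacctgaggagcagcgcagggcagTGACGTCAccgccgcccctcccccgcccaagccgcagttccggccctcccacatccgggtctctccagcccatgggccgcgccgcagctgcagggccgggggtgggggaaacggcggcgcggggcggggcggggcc
The motif begins 190 bases before the RefSeq start of Ilrun and 136 bases before that of Ppm1a. It was in 2.89% of the 14412 windows of genes tested here and 1.79% of all 32851 windows. The GC box GGGCGG, on either strand, was in the windows of 5 members (7 of 11 windows, against 60.4% for genes tested), CCAAT on either strand in 3 windows (against 37.3%), and TATAAA on either strand in 0 (against 7.4%). None of the motifs searched contains another, and a match describes the letters of the window alone.

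Marf1 had the lowest level at 3 weeks relative to 8 weeks of the 10. It encodes an endoribonuclease known for controlling meiosis in oocytes (chr16:14109173-14163351, minus strand, 27 exons). R206W mice had 74.66, 73.87 and 74.61 TPM, with a coefficient of variation of 0.595%, and their controls 52.11, 53.48 and 54.63 TPM. P209L mice had 46.38, 41.99 and 47.47 TPM and their controls 25.34 and 26.99 TPM. KO mice had 49.63, 48.95 and 49.20 TPM, inside the 47.39 to 57.14 TPM of their controls. R206W was above all other groups and the P209L controls below all others, while the P209L mice were below the KO mice and below all but 1 of the 8-week controls. The means were 139% of control in R206W, 173% in P209L and 93.1% in KO.

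Paip2b encodes a repressor of translation that competes for the poly(A)-binding protein (chr6:83805401-83831741, minus strand). R206W mice had 63.17, 62.25 and 63.90 TPM and their controls 47.42, 50.28 and 46.19 TPM. P209L mice had 58.89, 66.41 and 65.61 TPM and their controls 37.45 and 32.44 TPM. The knockin groups overlapped each other and were above all other mice. KO mice, with 43.74, 41.77 and 32.29 TPM, overlapped their controls, with 35.89, 45.32 and 41.30 TPM, and both these groups were below the R206W controls. The means were 132%, 182% and 96.2% of control in R206W, P209L and KO. Stretches of 101 to 177 nt of a Paip2b transcript matched transcripts of 11 other genes at 95.05% to 97.7% identity, and 101 nt of a Marf1 transcript matched Gm37011 at 95.05%, so reads from these stretches could be assigned to either gene.

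Atf6b encodes a transcription factor held in the endoplasmic reticulum membrane and released by cleavage under stress (chr17:34647146-34655074, plus strand). R206W mice had 42.19, 44.99 and 52.13 TPM and their controls 34.33, 31.71 and 29.77 TPM. P209L mice had 41.05, 50 and 49.15 TPM and their controls 30.36 and 29.47 TPM. KO mice had 29.40, 26.54 and 42.66 TPM and their controls 17.31, 31.29 and 34.21 TPM. KO 3 was therefore inside the range of both knockin groups, and KO control 1 was the lowest of all mice. The KO mean was 119% of control, but 100.4% of the other 2 KO controls, and the log2 difference of 0.27 (SE 0.209) became -0.023 without KO control 1. Atf6b was the most variable gene of the set, with a coefficient of variation of 32.7% in KO controls.

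Dzip1 encodes a zinc finger protein of the basal body (chr14:118875520-118925460, minus strand). R206W mice had 84.05, 89.54 and 85.43 TPM and their controls 64.84, 62.45 and 64.97 TPM. P209L mice had 80.24, 85.32 and 88.02 TPM and their controls 54.06 and 60.92 TPM. The knockin groups overlapped each other and stood above the other 4 groups, which ranged from 54.06 to 73.20 TPM. Among those, the P209L controls overlapped the KO mice and their controls and were below the R206W controls. The means were 135%, 147% and 103% of control in R206W, P209L and KO. An antisense gene, Gm49179, covers 1383 nt of a Dzip1 transcript. The library kit keeps the strand, but whether the authors' quantification used it is not given in the sources used here.

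Gm31166 had the largest difference of the 10 in both knockin lines. It is annotated as a transcribed processed pseudogene, a copied messenger RNA inserted into the genome that is itself transcribed (chr19:5512528-5550368, plus strand). R206W mice had 9.51, 9.36 and 8.36 TPM and their controls 2.11, 2.39 and 2.36 TPM. P209L mice had 8.14, 7.81 and 9.27 TPM and their controls 1.75 and 2.28 TPM. KO mice had 3.74, 2.68 and 2.66 TPM, slightly above their controls, with 2.61, 2.51 and 2.23 TPM. The knockin groups overlapped each other and were above all other mice, with means of 397% and 417% of control, and the KO mean was 124%. The log2 difference was 1.62 (SE 0.125) in R206W and 1.64 (SE 0.140) in P209L, and in KO it was 0.21 (SE 0.125), or 0.091 without KO 1.

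The annotation (GENCODE M21) gives Gm31166 3 transcripts, of 1268, 300 and 288 nt. Levels are per gene symbol, so which of these transcripts was higher in the knockin lines is not known. The shortest is the pseudogene body, a single exon at chr19:5542360-5542647, shown here because it is the stretch that resembles another expressed gene. Capitals mark its first 186 bases, which are also spliced into the 300 nt transcript, while the 1268 nt transcript holds none of this exon.
Gm31166 pseudogene exon: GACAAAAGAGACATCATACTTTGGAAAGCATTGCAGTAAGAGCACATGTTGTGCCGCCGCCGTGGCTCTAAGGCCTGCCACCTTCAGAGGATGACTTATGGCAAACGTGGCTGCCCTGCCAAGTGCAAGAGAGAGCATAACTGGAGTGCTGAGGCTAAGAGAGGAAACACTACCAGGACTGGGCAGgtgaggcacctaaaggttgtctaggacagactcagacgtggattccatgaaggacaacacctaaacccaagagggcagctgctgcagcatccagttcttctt
By percent identity, its most similar annotated transcript was a further processed pseudogene, Gm13862, at 88.1% over 194 nt of the exon. Over a longer stretch of 280 nt, the exon resembled Rpl37, the gene of a large-subunit ribosomal protein, at 84.3% identity. It resembled 31 genes in all, 26 of them processed pseudogenes, at 70.2% to 88.1%. Rpl37 itself had a mean of 393 TPM in KO controls, 359 TPM in R206W controls and 489 TPM in P209L controls. Its log2 differences of 0.022, -0.028 and 0.18 in KO, R206W and P209L did not pass (adjusted p = 0.999, 1 and 0.909), and its groups overlapped in each line. The last exon of the longest Gm31166 transcript is antisense to Ovol1, a zinc finger transcription factor gene, over its whole 690 nt. Ovol1 was listed at 0 to 0.13 TPM in all mice.

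**Figure D3:**
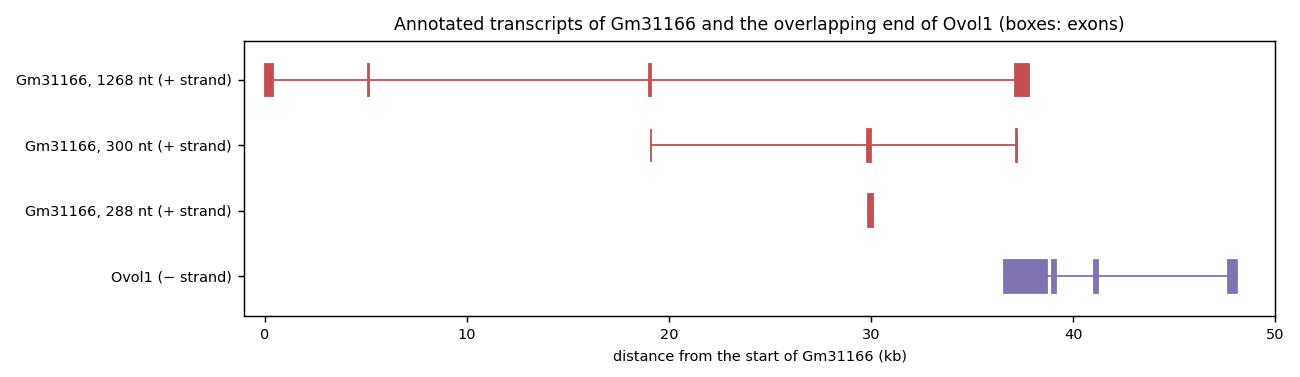
Exons (boxes) of the 3 annotated Gm31166 transcripts and of Ovol1, which lies on the opposite strand, by distance in kb from the start of Gm31166. The 288 nt pseudogene body lies between the outer exons of the longer transcripts, and the last exon of the 1268 nt transcript lies inside an Ovol1 exon.

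4833412C05Rik is a long intergenic noncoding RNA of unknown function (chr7:67784538-67804139, minus strand, 3 exons). R206W mice had 4.61, 4.16 and 3.64 TPM and their controls 1.70, 2.51 and 1.93 TPM. P209L mice had 3.89, 3.03 and 4.23 TPM and their controls 1.90 and 2.09 TPM. KO mice had 1.75, 1.48 and 2.37 TPM and overlapped their controls, with 1.97, 2.48 and 2.72 TPM. The knockin groups overlapped each other and were above all other mice. The means were 202% of control in R206W, the second largest ratio of the set in that line, 186% in P209L and 78.1% in KO. At these low levels the pseudocount matters, since with 0.1 in place of 1 the log2 difference in R206W was 0.99 in place of 0.76.

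The controls also showed how the 10 genes differed between the ages. The 3-week P209L controls were below all 6 of the 8-week controls for Ilrun (57.0% of their mean), Marf1 (49.2%), Ppm1a (62.9%), Zfp91 (75.8%) and Grk5 (65.2%). For Gm31166 (85.1%), Paip2b (78.7%), Dzip1 (88.8%), Atf6b (100.5%) and 4833412C05Rik (89.9%) the ages overlapped. The share of all genes tested with such a gap between the ages was not computed, so the gap is not shown to be particular to these genes. The median of the 10 was 77.2%, against 90.1% over all genes with a level at 8 weeks. Against the 8-week control mean, the P209L mice at 3 weeks were at 85.2% for Marf1, 101.7% for Grk5, 112% for Ilrun and 355% for Gm31166. The P209L controls were used to choose the genes, so these values are a description, and line and age cannot be told apart.

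**Figure D4:**
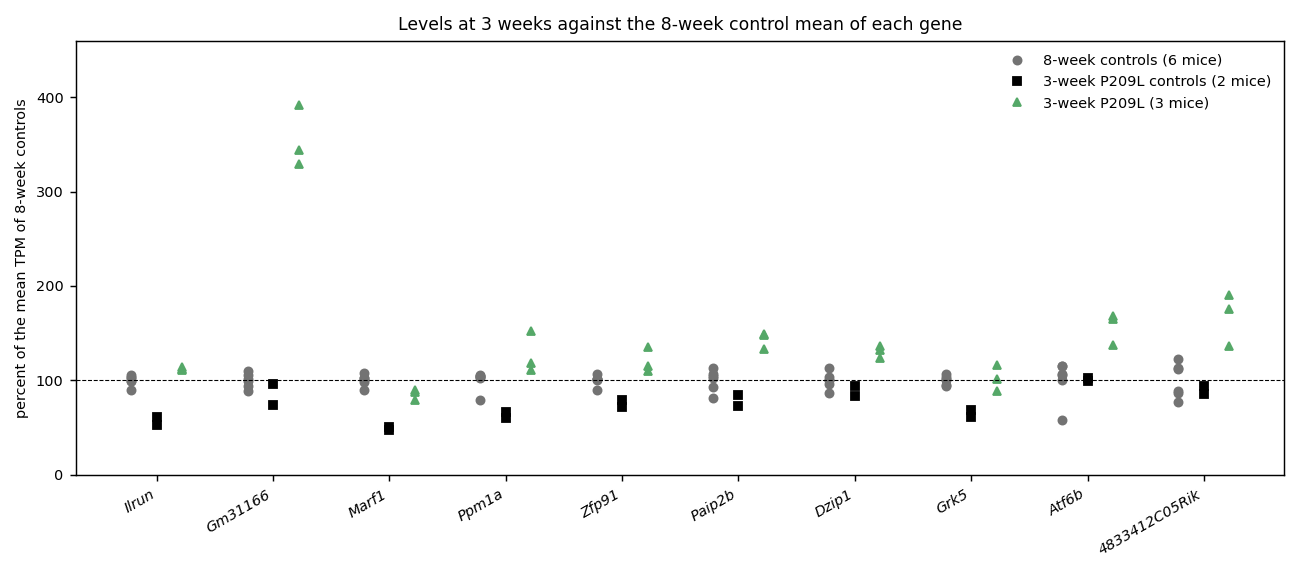
Levels of the 10 genes in each 8-week control, 3-week P209L control and 3-week P209L mouse, as a percentage of the mean TPM of the 6 8-week controls (dashed line at 100). The 3-week controls (squares) lie below all 8-week controls for 5 genes, and the share over all genes was not computed. The P209L mice (triangles) lie above their own controls for all 10.

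Summed levels of some cell type markers differed between mutants and the 2 controls in the P209L line. Summed markers of oligodendrocytes were at 3199 to 4787 TPM in the P209L controls and 2040 to 2841 TPM in the P209L mice, those of skeletal muscle at 106 to 112 TPM and 42.6 to 53.1 TPM, and those of cortical projection neurons at 113 to 123 TPM and 133 to 144 TPM, with no list gene at 0. Choroid plexus markers were at 9.15 to 1763 TPM in the controls and 4.32 to 14.0 TPM in the P209L mice. The part of these differences in the results was not tested. Without P209L control 2, the differences of the 10 genes ran from 0.58 for Zfp91 to 1.77 for Gm31166. Every P209L mouse was above both controls for each of these genes, so leaving out a control could not bring a difference to 0. In the R206W line the same lists overlapped between mutants and controls, with skeletal muscle at 52.4 to 58.5 TPM and 45.4 to 58.3 TPM and cortical projection neurons at 201 to 248 TPM and 189 to 208 TPM. In KO control 1, 9 of the 10 genes were below the mean of the other KO controls, at a median of 84.0% of it, and all genes tested were at a median of 73.4%. Without that mouse the median difference in KO was -0.13 for the 10 and -0.059 over all genes tested. With it, these medians were -0.050 and 0.064. Gm31166 was the 1 gene of the 10 above 0 without that mouse.

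Close relatives of 5 members did not pass in any line. They were picked from the pathway lists after their values were seen. Atf6, the paralog of Atf6b, was at 27.62, 28.50 and 33.96 TPM in R206W mice and 31.81, 31.88 and 30.78 TPM in their controls. In the P209L line Atf6 was at 15.44, 13.42 and 18.58 TPM against 17.48 and 16.74 TPM. Its groups overlapped in every line, and its log2 differences were -0.11 (SE 0.182), -0.072 (SE 0.182) and -0.12 (SE 0.203) in KO, R206W and P209L. Paip2, the paralog of Paip2b, was at 187.10, 186.62 and 182.98 TPM in R206W mice, all below their controls with 210.65, 200.87 and 204.56 TPM, a difference of -0.15 (SE 0.0958, adjusted p = 1). In P209L mice it overlapped the controls, at 0.13 (SE 0.107, adjusted p = 0.872). Ppm1b had a difference of 0.084 (SE 0.118) in R206W and of 0.26 (SE 0.132, adjusted p = 0.725) in P209L, where all mutants were above both controls. Grk6 had 0.064 (SE 0.137) and -0.034 (SE 0.154), and Dzip1l -0.098 (SE 0.155) and 0.028 (SE 0.174), in R206W and P209L. Differences between a member and its relative were not tested, since the member was chosen for its difference.

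**Figure D5:**
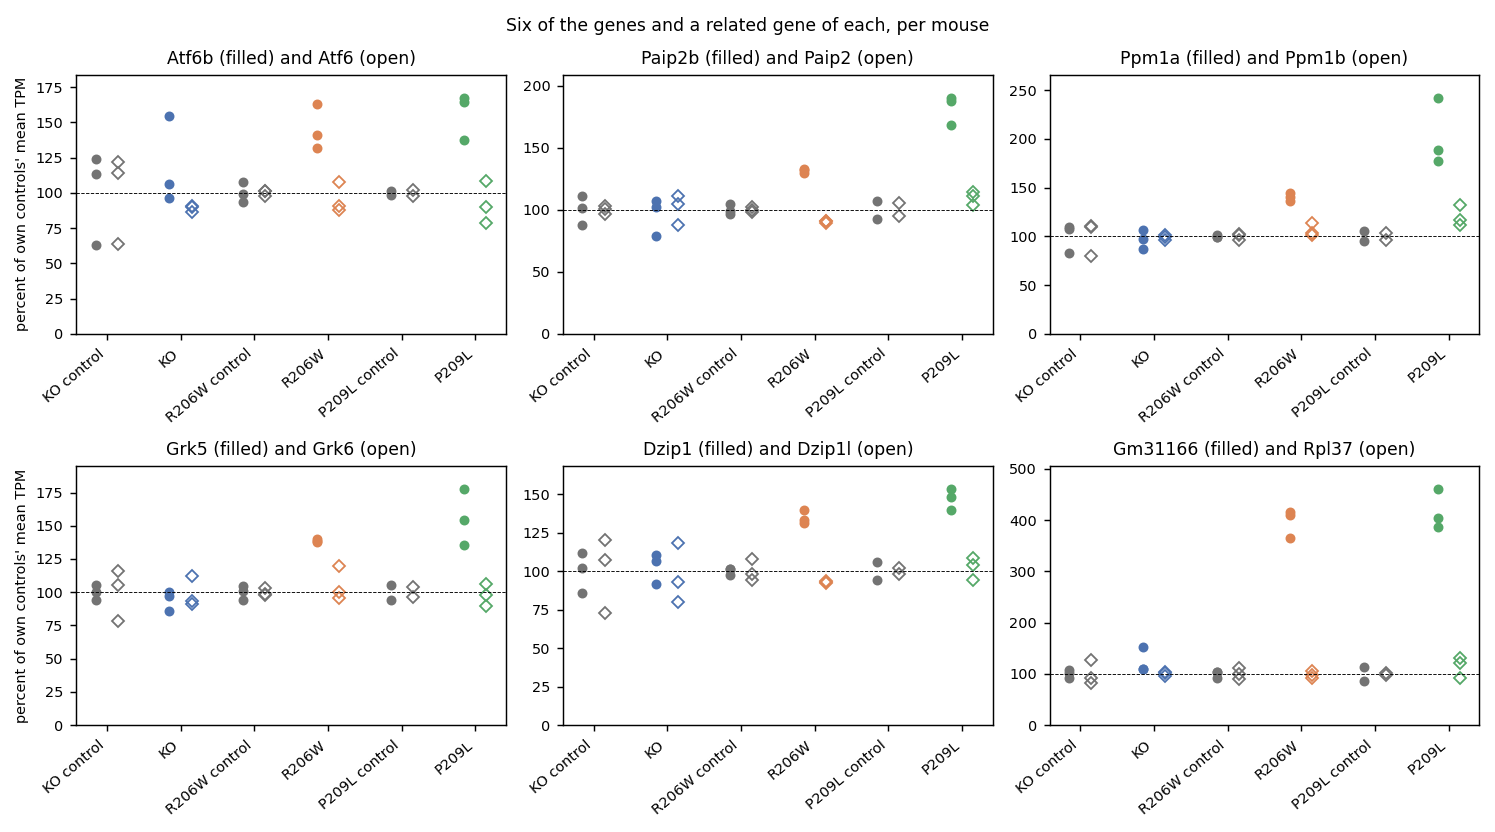
Levels of 6 of the 10 genes (filled circles) and of a related gene of each (open diamonds) in every mouse, as a percentage of the mean TPM of the controls of the same line. Filled points of both knockin groups lie above 100 in all panels, while the open points of these groups lie nearer to 100, with R206W mice below it for Paip2 and Dzip1l and P209L mice above it for Paip2 and Ppm1b.

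Further genes of the pathways these proteins belong to were taken from 8 lists of 82 genes, 77 of which were tested. The lists were PP2C phosphatases (14 tested), G protein-coupled receptor kinases and arrestins (6), poly(A)-binding and cap-binding translation factors (10), endoplasmic reticulum stress sensors and targets (13), Hedgehog and cilium genes (8), partners of ILRUN (5), noncanonical NF-kB genes (8) and messenger RNA decapping and decay factors (13). By limma's adjusted p, 0 of the 77 passed in any of the 3 lines. At an unadjusted p under 0.05 the count was 1 in KO (higher), 0 in R206W and 2 in P209L (both higher), where 4.08%, 2.19% and 7.46% of all genes tested had such a p in either direction. The median differences of the lists together were 0.069, 0.012 and 0.025 in KO, R206W and P209L.

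The smallest p-values belonged to a few genes in each line. In KO these were Dcp1b, a decapping cofactor (0.39, SE 0.123, adjusted p = 0.999), Smo, the signal transducer of Hedgehog (0.22, SE 0.110, adjusted p = 0.999), and Ppm1m, a PP2C phosphatase (0.31, SE 0.166, adjusted p = 0.999). In R206W they were Birc2, a ubiquitin ligase that lowers NIK (-0.18, SE 0.106, adjusted p = 1), Paip2, given above, and Dcp2, the decapping enzyme (-0.18, SE 0.123, adjusted p = 1). In P209L they were Traf3, an adaptor that also lowers NIK (0.39, SE 0.149, adjusted p = 0.537), Xrn1, the exonuclease that degrades decapped RNA (0.31, SE 0.136, adjusted p = 0.628), and Hsp90b1, an endoplasmic reticulum chaperone (0.34, SE 0.163, adjusted p = 0.678).

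The 10 genes lie on 7 chromosomes, and genes within 100 kb of them were compared in the same way. Of 53 tested neighbours, 0 passed limma's adjusted p in KO, R206W or P209L. At an unadjusted p under 0.05 were 6 in KO and 5 in P209L, all higher, and 1 in R206W, which was lower. These were 11.3%, 9.43% and 1.89% of the neighbours in KO, P209L and R206W, beside 4.08%, 7.46% and 2.19% of all genes tested. Those with the smallest p were Rnaseh2c, a subunit of ribonuclease H2 near Gm31166, in KO (0.37, SE 0.112, adjusted p = 0.999), 4930481A15Rik, also near Gm31166, in R206W (-0.61, SE 0.191, adjusted p = 1), and 1700124L16Rik, near Paip2b, in P209L (0.69, SE 0.198, adjusted p = 0.322). The difference of 4930481A15Rik in R206W was opposite in sign to that of Gm31166.

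The 8 coding members had longer transcripts at the median than coding genes in general. The longest annotated transcript of each had a median of 5054 nt, against 3466 nt over the 13461 coding genes tested, with a median of 13.5 exons against 8. The part of it outside the coding sequence had a median of 3574 nt over the 7 members with an annotated coding part in that transcript (not Dzip1), against 1704 nt over 11374 coding genes. GC content had medians of 48.5% and 49.8%. The range within the set was wide, from 2566 nt in Atf6b to 7751 nt in Marf1. These are descriptions of a small set, with no test.

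Within groups, most pairs of members had a correlation above 0. Pairs of genes outside the set were not computed, so this is not shown to be particular to the members. Deviations of log2(TPM + 1) from the group means were correlated for each of the 45 pairs of members over 17 mice, which share the libraries and the scaling to a fixed total. The median r was 0.31 and 41 pairs were above 0, from -0.37 (Gm31166 with Atf6b) to 0.91 (Ppm1a with Zfp91). Without the 3 KO controls, over 14 mice, the median was 0.23, 30 pairs were above 0, and the range ran from -0.80 (Ilrun with Paip2b) to 0.89 (Ppm1a with Zfp91).

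The genes outside the set whose pattern was most like that of Ilrun were Ppp1r9b (r = 0.99), Phactr3 (0.98), Cacng7 (0.97), Ddn (0.95) and Tab2 (0.94). The measure was Pearson's r over the 17 mice of log2(TPM + 1) minus the mean of the controls of the same line, so that points of a group lie together and differences between groups weigh most. For Gm31166 they were Ppp1r9b (0.96), Phactr3 (0.96), Cacng7 (0.93), Ppfia3 (0.92) and Ddn (0.92). Ppp1r9b encodes spinophilin and Phactr3 a further protein phosphatase 1 regulator, Cacng7 an auxiliary subunit of AMPA receptors, Ddn the postsynaptic protein dendrin, Tab2 an adaptor of the kinase TAK1, and Ppfia3 a presynaptic scaffold of the liprin family. Within groups, the deviations of Cacng7 from the group means went with those of Ilrun at r = 0.94, and those of Ddn at 0.087. These were the extremes for Ilrun, and for Gm31166 the values ran from -0.30 (Phactr3) to 0.16 (Ppp1r9b). Cacng7 differed by 0.33 in R206W and 0.40 in P209L, a smaller difference than that of Ilrun. Phactr3, Tab2 and Ppfia3 also differed by less than Ilrun in both lines. Ppp1r9b (1.08 and 1.53) and Ddn (0.92 and 1.67) differed by more. Among the members, Ilrun and Gm31166 had an r of 0.97 with each other, and Atf6b was the least like either, at 0.76 and 0.68. The members were chosen for this pattern, which itself raises r between them, so nothing is read from these values. Within groups, the deviations of Ilrun and Gm31166 had an r of 0.047.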

How the data were processed

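Total RNA of bulk cortex was sequenced as TruSeq stranded libraries. The submitters' processing notes name Trim Galore, STAR 2.7.1a, GATK 4.0.4.0, RSEM and the mm10 build, without their order. The authors deposited TPM values per gene symbol and mouse (55573 entries, of which 120 repeated a symbol and were summed). TPM keeps no depth, so no counting error is given and precision was judged between mice. It is also a share of a fixed total, so abundant transcripts can shift all others. Genes with a mean of at least 1 TPM were analysed as log2(TPM + 1) with limma 3.58.1 in R 4.3.3, with a mean for each of 6 groups, trend=TRUE and Benjamini-Hochberg adjustment over all 16265 genes of a contrast (two-sided, threshold 0.05). The script was tested on simulated data. Differences are on the log2(TPM + 1) scale, which understates changes of low genes.

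Genes named were the 10 members, Hnrnph2, pathway genes and neighbours past the threshold or, where none passed, the 3 pathway genes and the 1 neighbour with the smallest p in each line, the 5 genes most like Ilrun and Gm31166, and the transcript most similar to the Gm31166 exon. Rpl37, Cntf, Ovol1, Ttr and the relatives were named after their values were seen. The members and lists were chosen with earlier results of these data known. Annotation came from GENCODE M21 (GRCm38) by symbol (98.5% matched, Ilrun through an older symbol), promoter sequence from RefSeq, and sequence similarity from BLAST 2.17.0. Alternatives were a pseudocount of 0.1, no filter, a filter at 5 TPM, median-of-ratios size factors, a replicate block, a fit of each line alone, and leaving out each mouse.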

Additional observations from a re-analysis of the deposited data

Results flagged for a closer look

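Hnrnph2 was flagged because its KO effect differed from both knockin effects, by -2.31 on the log2 scale from R206W (limma adjusted p = 0.00106) and by -2.40 from P209L (adjusted p = 0.000465). The other flagged genes had all mice of one mutant group above their controls and all mice of another below theirs, and the difference of effects did not pass. Such patterns were sought only among genes named above. Birc2, Dcp2 and Smo had been named for a small p in R206W or KO, and the share over all genes was not computed. Birc2 was lower in R206W and higher in P209L, with a difference of effects of -0.35 (adjusted p = 1.00). Dcp2 showed the same pattern, with -0.34 (adjusted p = 1.00). Smo was higher in KO and lower in P209L, with a difference of 0.42 (adjusted p = 0.538). No group had enough mice to look for single outlying values.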

How the results depend on the processing

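The 10 genes stayed above 0 in all 118 alternative values in R206W (0.30 to 1.94) and all 108 in P209L (0.46 to 2.02), and were above 0 in 40 of 118 in KO. In both knockin lines every mutant was above every control for these genes, so leaving out a mouse could not change the sign. Other filters and a fit of a line alone repeat the differences of the main fit. The signs in the knockin lines are therefore no check on the choice of the genes. The median difference of the 10 in KO was -0.13 with median-of-ratios size factors and -0.13 to 0.021 when mice were left out, the lowest without KO control 1 and the highest without KO control 2. The median over all genes tested in KO was 0.064 in the main fit and -0.0039 with size factors. It was -0.059 without KO control 1 and 0.12 without KO control 2. In P209L the median difference of the 10 was 0.82 with a pseudocount of 0.1, and 0.66 to 0.79 when mice were left out. Of the 10, the number called in R206W was 1 at a filter of 5 TPM, where Gm31166 and 4833412C05Rik are not tested. It was 3 with no filter, where Marf1 was gained, and 4 in a fit of that line alone. In P209L it was 0 in the line alone, and 3 to 5 when mice were left out, with 3 (Ilrun, Gm31166 and Marf1) without P209L control 2. With size factors, Dzip1 was called in P209L in addition to the 6 of the main fit. Over all genes, KO had 1 called, 2 with no filter, 0 in the line alone (limma) and 1 to 5 when mice were left out, with 5 without KO control 1. R206W had 6, and 10 in the line alone. P209L had 16, 52 with no filter, 66 with size factors, 6 in the line alone, and 8 to 26 when mice were left out, with 26 without P209L control 1 and 8 without P209L control 2. The cause was not tested, except that other filters change the genes tested and fits of a line alone use fewer mice. With the replicate number as a block, 2 of the 10 and 9 of all genes were called in P209L. Whether the numbers mark pairs of mice is not known. Deviations of same-numbered mice correlated at -0.11 to 0.33, which cannot decide it with 2 or 3 mice in a group. The block changed no call for the 10 in KO or R206W. Pathway and neighbouring genes had 0 called under every alternative.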
